A study of Equus caballus with 6 samples.

Results

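The sequences described here are small RNAs of 25 to 32 nt from horse testis that begin with G and have a base other than A at position 10. Members were chosen by their letters alone, and sequences holding bases 2 to 21 of the leading glycine tRNA fragment unchanged were left out. The rule took 118638 of the 4936717 distinct sequences in the table, and 133 sequences were left out for the exact tRNA stretch. Those 133 sequences held 7.90%, 12.5% and 7.35% of all reads in the immature libraries and 1.402%, 0.262% and 0.389% in the mature ones. The study sequenced small RNA from testes of the Mongolian horse, in 3 libraries of immature testis and 3 of mature testis, made from total RNA of whole tissue with no treatment named. The labels give neither the age of the animals nor whether each library came from a separate animal, so the p-values measure only the spread between these libraries. In whole tissue, fewer cells of a type and less RNA per cell cannot be told apart. The table holds small RNA counts only, so cell type markers of the testis could not be checked.

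PIWI proteins bind piRNAs, small RNAs of germ cells that guide the silencing of transposons and other transcripts. Primary piRNAs mostly begin with uridine, and in the ping-pong cycle the cut made by a piRNA with uridine at its start leaves a partner with adenine at position 10. A sequence that begins with G and lacks A at position 10 carries neither mark. The same size range can also hold fragments of tRNAs, of ribosomal RNA and of small nucleolar RNAs. Box C/D small nucleolar RNAs guide the methylation of ribosomal RNA and carry box C near the start and box D near the end.

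The first set below shows the glycine tRNA fragment used by the rule (uniq_2076883, bases 2 to 21 in capitals) and members that differ from it by a substitution, which is in capitals. Positions are counted from 1 at the 5′ end, and T stands for U throughout.
uniq_2076883: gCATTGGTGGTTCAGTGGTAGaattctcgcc
uniq_2789082, G6T: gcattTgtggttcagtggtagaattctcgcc
uniq_3045444, T5G: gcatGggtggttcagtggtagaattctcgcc
uniq_3371352, G6A: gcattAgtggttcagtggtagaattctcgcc
uniq_3336576, T4G: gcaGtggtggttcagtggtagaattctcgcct

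The second set holds members that were abundant in immature testis outside the glycine tRNA variants. Capitals mark box C and box D in uniq_4448432, the A box of tRNA genes in uniq_2998953, and bases 1 and 10 in the others.
uniq_4448432: gacaaTGATGActccaggtgactCTGAgc
uniq_2998953: ggttccaTGGTGTAATGGttagcactctgg
uniq_170669: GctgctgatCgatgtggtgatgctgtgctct
uniq_3130864: GgttctgatGtcaaaacttaagttctgacc
uniq_3577179: GttgaacatGggtcagtcggtcctgag
uniq_3914269: GactcttagCggtggatcactcggcc

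The third set holds members that were abundant in mature testis, with bases 1 and 10 in capitals. Below uniq_4079563, uniq_2506501 and uniq_3334678 stands the sequence beginning with U that shares bases 2 to 21 with it, since these pairs carry the first-base result.
uniq_2942607: GacttatccTctgcttcaaggctggactgg
uniq_2685080: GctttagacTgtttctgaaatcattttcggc
uniq_4079563: GaatagagaCtgttgaaggatgaactcaac
uniq_5153807: TaatagagaCtgttgaaggatgaactcaac
uniq_2506501: GggaagtctGagagttctgttctggccagg
uniq_5184017: TggaagtctGagagttctgttctggccagg
uniq_3334678: GaaaatgttGccggagtaaatgctgtgtg
uniq_2056404: TaaaatgttGccggagtaaatgctgtgtg

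The table held 1382083, 2347351 and 1462339 reads in the immature libraries and 4139452, 4032042 and 4550970 in the mature ones. Members held 50164, 60587 and 37402 of these reads in immature testis and 60655, 56595 and 63257 in mature testis. Levels are given as CPM, the usual depth-scaled read count, relative to all reads of the library in this table. A count of 0 allows up to 3 reads, or 1.28 to 2.17 CPM in an immature library and 0.659 to 0.744 CPM in a mature one. The 95% Wilson interval of a share of member reads reached at most 0.507 percentage points to either side, and intervals and floors cover counting error only. The members were sparse, since 81.5% had 1 read in all libraries together, against 77.0% in the whole table. Immature replicate 1 stood apart from the other immature libraries in the first-base and position 4 results below, and mature replicate 1 stood apart from the other mature libraries in tRNA fragments.

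Members took a larger part of the reads in immature testis and a larger part of the distinct sequences in mature testis. They held 3.63%, 2.58% and 2.56% of reads in the immature libraries and 1.47%, 1.404% and 1.39% in the mature ones. The means were 2.92% ± 0.612 (SD, n = 3) and 1.42% ± 0.0401 (exact two-sided permutation p = 0.1, the smallest that 3 against 3 libraries can give). Every immature library lay above every mature one. Sequences that begin with A or C and lack A at position 10 also held more of the immature reads. The A sequences held 2.77% ± 0.415 and 1.24% ± 0.0202, and the C sequences 3.65% ± 0.426 and 2.44% ± 0.0805, without overlap. For the log2 ratio of read shares, members to A sequences, mature minus immature was 0.127 (exact permutation p = 0.4). For members to C sequences it was -0.447 (exact permutation p = 0.1). By reads, the lower share of members in mature testis was thus not told apart from that of the A sequences. Its fall was larger than that of the C sequences. Neither reading held without the members that carry a tRNA A box at position 8, described below. Without them the log2 difference was 0.501 for members to A sequences (exact permutation p = 0.1). For members to C sequences it was then -0.0727 (exact permutation p = 0.7). With each distinct sequence of a library counted once, the order turned for the members, to 1.87% ± 0.346 in immature testis and 2.64% ± 0.0674 in mature testis (exact permutation p = 0.1). Immature member reads were therefore concentrated on fewer sequences. The 10 most abundant members of each library held 26.2%, 30.0% and 23.3% of member reads in immature testis and 11.4%, 6.29% and 7.09% in mature testis (exact permutation p = 0.1). Sequences that begin with A and lack A at position 10 held 12.1% ± 1.62 and 7.85% ± 1.04 of their reads in their own leading 10. The excess of the G members over the A sequences, in percentage points, was 14.4 ± 4.67 in immature testis and 0.407 ± 3.23 in mature testis (exact permutation p = 0.1).

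Length also divided the members differently by reads and by sequences. Reads of 29 to 32 nt, the longer of the piRNA lengths in this table, made up 57.4%, 58.3% and 50.5% of member reads in immature testis and 67.9%, 64.6% and 63.7% in mature testis. The groups did not overlap, with means of 55.4% ± 4.25 and 65.4% ± 2.20 (SD, n = 3, exact permutation p = 0.1). Without sequences read once the means were 67.9% and 70.6%, a difference of 2.66 percentage points in place of 9.95 (exact permutation p = 0.6). By distinct sequences the share was 29.5% ± 0.468 in immature and 57.9% ± 0.888 in mature testis, a gap of 28.4 percentage points. The most frequent length of immature member reads was 31 nt, with 27.9% ± 5.39, the length of the leading glycine tRNA variants printed above. The next was 27 nt with 22.3% ± 2.45, and in mature testis 29 nt led with 23.6% ± 1.61. Among sequences beginning with A the share of 29 to 32 nt reads was 30.2% ± 2.97 in immature and 60.4% ± 1.76 in mature testis. The difference between the G members and the A sequences was thus 25.2 percentage points ± 6.74 in immature testis and 4.99 ± 0.777 in mature testis (exact permutation p = 0.1). Against sequences beginning with C it was 28.1 ± 2.66 and 2.60 ± 1.06 (exact permutation p = 0.1). By distinct sequences these contrasts overlapped between the groups, with 4.58 ± 0.866 and 4.67 ± 0.411 against A (exact permutation p = 0.9) and 3.61 ± 1.09 and 4.48 ± 0.609 against C (exact permutation p = 0.3). Without tRNA-like and box C/D members, a choice made after the data were seen, the share was 38.4% ± 3.09 in immature and 64.0% ± 0.844 in mature testis.

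Variants of the glycine tRNA fragment made up a large part of the immature member reads. They were 325 sequences with 1 to 3 substitutions in bases 2 to 21, and they held 23.5%, 31.3% and 23.2% of member reads in immature testis. In mature testis they held 10.2%, 1.58% and 2.52%, so that the mature mean of 4.77% ± 4.74 rested on replicate 1. Their summed level was 7506 CPM ± 1389 in the immature group and 689.5 CPM ± 702 in mature testis. All 325 make up 0.274% of the members. Of the A sequences 4 and of the C sequences 2 met the same definition.

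The leading member, uniq_2789082 (G6T), stood at 1503, 2703 and 2031 CPM in immature testis and at 396, 46.1 and 85.3 CPM in mature testis. It fell in mature testis, with a log2 fold change of -6.13 ± 0.79 (SE) in edgeR's quasi-likelihood test scaled by TMM (adjusted p = 5.55e-14). Scaled by library totals the edgeR value was -3.56 ± 0.78 (adjusted p = 9.02e-06). The TMM factors were 0.360, 0.442 and 0.419 in the immature libraries and 2.41, 2.38 and 2.62 in the mature ones. Log2 fold changes, mature against immature, therefore lie lower under TMM than by library totals. In CPM the immature mean of uniq_2789082 was 11.8-fold the mature mean, and 31.6-fold without mature replicate 1. The next, uniq_3045444 (T5G), stood at 1457, 1867 and 1065 CPM in immature and at 593, 64.5 and 104 CPM in mature testis. Its immature mean was 5.76-fold the mature one, and 17.4-fold without mature replicate 1.

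Set against the unchanged fragment, the G6T form overlapped between the groups and the T5G form did not. The level of the G6T form was 4.63%, 4.47% and 5.71% of that of uniq_2076883 in the immature libraries and 5.22%, 4.68% and 5.05% in the mature ones. For the T5G form the values were 4.48%, 3.08% and 2.99% in immature and 7.82%, 6.54% and 6.15% in mature testis, so here every mature library was above every immature one. The G6A form (uniq_3371352) lay between 0.428% and 0.598% in all 6 libraries. All 43 members of 31 nt with 1 substitution together came to 15.7%, 10.99% and 12.4% of the unchanged fragment in immature testis. In mature testis they came to 16.8%, 14.5% and 14.96%, again with overlap. The overlap came from immature replicate 1, where the T4G form (uniq_4154646) alone came to 2.38%. Elsewhere that form was at most 0.0382%, and without it the groups would not overlap. Among the other members with 1 substitution, T4C (uniq_5148628) came to 0.524% in immature replicate 1, level with G6A there, and to 0.2006% to 0.283% elsewhere. Further examples were T12C (uniq_2530773) at 0.234% to 0.383% and T11C (uniq_3181653) at 0.252% to 0.356%. Changes outside bases 2 to 21 leave the exact stretch intact and are no members, among them the more frequent C31T (uniq_3790290) at 24.97% to 41.3%.

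The T4G form was different, since it was frequent in 1 library only. Its 31 nt version (uniq_4154646) reached 2.38% of the unchanged fragment in immature replicate 1, against 0.0260% and 0.0288% in the other immature libraries and 0.0382%, 0% and 0.0130% in the mature ones. The 32 nt version, uniq_3336576, stood at 919.6, 25.6 and 45.8 CPM in immature and at 7.01, 1.74 and 2.86 CPM in mature testis. The immature mean was 85.4-fold the mature mean, 9.23-fold without immature replicate 1 and 143.9-fold without mature replicate 1. T-to-G changes at position 4 held 17.8% of the reads of variants around listed sequences in that library and at most 0.243% in the others (variants as defined for the centres below). The part of sequencing or library preparation in this library was not tested.

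Other tRNA-like members were few. The A box, an internal promoter element of tRNA genes, was read by its consensus at position 8, as in a fragment that starts at the first base of a tRNA. Including the glycine variants that keep it, 487 members carried it, with 25.5%, 31.2% and 23.4% of member reads in immature testis and 10.3%, 1.90% and 2.81% in mature testis (exact permutation p = 0.1). The mature mean was 4.99%, and 2.35% when mature replicate 1 was left out. In the A and C sequences the A box held at most 0.147% of reads in any library, and over all sequences 12.3% ± 3.26 of immature and 2.02% ± 1.18 of mature reads. Apart from the glycine variants, 227 members carried it and held 2.64%, 0.942% and 1.03% of member reads in immature and 0.401%, 0.401% and 0.408% in mature testis. Their leader, uniq_2998953, reads like the 5′ part of a glutamine tRNA. It stood at 553.5, 117 and 79.3 CPM in immature and at 19.3, 16.1 and 22.9 CPM in mature testis. Its immature mean was 12.9-fold the mature one, and 5.06-fold without immature replicate 1.

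Sequences with the boxes of C/D small nucleolar RNAs were also mostly reads of immature testis. The search took TGATGA, the core of box C, within the first 14 bases and CTGA, box D, within the last 9 bases, on the strand as sequenced and with no overlap between the boxes required. It found 1156 members (0.974%), against 0.589% of the A sequences, 0.354% of the C sequences and 0.158% of the whole table. A match describes the letters only. These members held 8.46%, 7.43% and 8.97% of member reads in immature and 1.13%, 2.01% and 1.505% in mature testis. Each immature library was above each mature one, with summed levels of 2427 CPM ± 588 and 218.6 CPM ± 58.7. In the whole table the same boxes held 0.814% ± 0.187 and 0.151% ± 0.0246 of reads. The most abundant, uniq_4448432, stood at 565.8, 328.5 and 430.1 CPM in immature and at 23.2, 37.2 and 28.3 CPM in mature testis. It fell in mature testis by 6.53 on the log2 scale when edgeR used TMM (adjusted p = 1.15e-16). By library totals it fell by 3.90 (edgeR, adjusted p = 6.51e-07).

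Many of these members came as sets that differed by their last base, while no row with the remaining last base was among those used here. The clearest set is shown with the last base in capitals.
uniq_4448432: gacaatgatgactccaggtgactctgagC
uniq_4448485: gacaatgatgactccaggtgactctgagG
uniq_4448493: gacaatgatgactccaggtgactctgagA
Beside uniq_4448432, uniq_4448485 stood at 252.7 CPM ± 14.3 in the immature group and 24.4 CPM ± 6.18 in mature testis. The level of uniq_4448493 was 105.6 CPM ± 16.5 and 9.86 CPM ± 4.14. A second set was uniq_2616082 with 154.4 CPM ± 29.3 and 17.99 CPM ± 6.93, uniq_2616095 with 64.9 CPM ± 17.3 and 4.76 CPM ± 2.20, and uniq_2616075 with 10.98 CPM ± 3.92 and 0.709 CPM ± 0.0445.
uniq_2616082: ggacatgatgactatgattatctgagG
uniq_2616095: ggacatgatgactatgattatctgagT
uniq_2616075: ggacatgatgactatgattatctgagC
In both sets every form was higher in each immature library than in any mature library.

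To count such sets, the centre of a set was defined after the data were seen as any sequence from which at least 20 members differ by 1 substitution. There were 58 centres, of which 25 were rows of the table and 33 were not among the rows used here. Of the 33, 18 carried both boxes and 28 had CTGA within the last 9 bases. The 1130 members around them held 15.8%, 14.7% and 16.8% of member reads in immature and 2.80%, 4.46% and 3.13% in mature testis. Substitutions of the last base made up 66.8% ± 7.04 of these reads in immature and 77.3% ± 1.83 in mature testis. The table is part of a longer list, and rows not used here may hold the centres themselves. An exception in direction was the set of uniq_4492199, which stood at 0.724, 20.9 and 13.7 CPM in immature and at 91.8, 98.0 and 91.2 CPM in mature testis. The A sequences had 31 such centres of 48 and the C sequences 32 of 83, with 17.3% ± 2.40 and 11.7% ± 0.384 of their immature reads.

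A few families held much of the immature reads, both with and without these marks. A family gathers the members that contain bases 2 to 21 of its leading sequence, and the 10 most abundant families held 39.9%, 40.8% and 34.2% of member reads in immature and 10.9%, 4.80% and 4.48% in mature testis. In all 10, each immature library was above each mature one (exact permutation p = 0.1 each, 0.1 after Benjamini-Hochberg adjustment over the 10). The families were chosen by their abundance in these same libraries, and several are led by glycine tRNA variants. These tests are therefore neither independent of the choice nor of each other. The family of uniq_170669, with 108 members of 25 to 32 nt, summed to 3610, 1564 and 1537 CPM in immature and to 113, 135 and 70.3 CPM in mature testis. Its leader stood at 1417, 524.4 and 417 CPM against 44.2, 47.1 and 27.7 CPM, 19.8-fold by the means and 11.9-fold without immature replicate 1. The 27 nt member uniq_170749 stood at 636.7, 214.7 and 306.4 CPM against 10.1, 12.2 and 7.47 CPM. The most abundant sequence with U in place of the first G had 14.9 CPM in the immature group and 10.01 CPM in mature testis. That was below both members in immature testis, and in mature testis below uniq_170669 but level with the 9.92 CPM of uniq_170749.

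The family of uniq_3130864, with 22 members, summed to 1463, 821 and 828 CPM in immature and to 62.6, 108.9 and 72.1 CPM in mature testis. Its leader and uniq_3130856 differed by the last base, C in the first and A in the second, with means of 648.9 and 331.9 CPM in immature and 43.7 and 33.9 CPM in mature testis. A 31 nt sequence that begins with U and starts 1 base earlier, uniq_4595452, had 584 CPM in the immature group and 56.3 CPM in mature testis. The starts of both lie 1 base apart.

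A pair of leaders reads like ribosomal RNA, the structural RNA of ribosomes, by letters that are well known, since no reference for it was used here. The family of uniq_3577179, which reads like a stretch of the large subunit RNA, summed to 858, 434.5 and 482 CPM in immature and to 127, 129 and 111 CPM in mature testis. The family of uniq_3914269, which reads like the start of the RNA that pairs with the large subunit RNA, summed to 240.2, 836.7 and 415 CPM in immature and to 6.28, 9.18 and 7.69 CPM in mature testis. The leader itself was 70.2-fold higher in immature testis by the means and 45.5-fold without immature replicate 2. Its immature libraries varied more than its mature ones, but the groups did not overlap.

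Most member reads of mature testis belonged to sequences that also occurred with U in place of the first G. A member was counted so when its bases 2 to 21 equalled those of a sequence of the same library that begins with U. By reads the share was 40.9%, 27.2% and 25.1% in immature testis and 67.7%, 71.5% and 72.3% in mature testis (exact permutation p = 0.1). By distinct sequences it was 14.7%, 5.20% and 4.28% in immature and 52.2%, 52.8% and 54.3% in mature testis. The groups did not overlap in either. With all libraries thinned to 1382083 reads, the shares of reads were 30.5% ± 9.03 and 63.1% ± 2.10. Where the U sequence also had at least 10 times the reads of the member, the share was 2.23%, 0.224% and 0.182% in immature and 24.6%, 26.8% and 29.2% in mature testis.

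Sequences beginning with A or C shared this feature less. By distinct sequences, 3.84% ± 0.178 of the A sequences in immature and 19.4% ± 1.29 in mature testis were such first-base variants, and 4.50% ± 0.409 and 16.9% ± 0.733 of the C sequences. The excess of the G members over the A sequences was 10.9, 1.18 and 0.612 percentage points in the immature libraries and 33.4, 34.2 and 33.4 in the mature ones (exact permutation p = 0.1). Over the C sequences it was 10.4, 0.224 and 0.0264 in immature testis and 35.7, 36.4 and 36.6 in mature testis (exact permutation p = 0.1). In immature replicates 2 and 3 the 3 first bases were thus close together, and immature replicate 1 lay between them and the mature libraries.

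The same was seen from the side of the U sequences. Only sequences lacking A at position 10 were used here, without the glycine tRNA fragment and its variants. Ends of these beginning with U and read at least 100 times numbered 260, 569 and 285 in the immature libraries and 3744, 3671 and 4315 in the mature ones. Their median counts were 164 to 168 and 198 to 202 reads. A G form was found at 39.6%, 4.22% and 2.81% of these ends in immature and at 53.9%, 55.4% and 55.7% in mature testis. An A form was found at 12.3%, 12.0% and 10.9% against 29.5%, 29.6% and 30.2%, and a C form at 23.1%, 18.6% and 17.2% against 30.7%, 31.4% and 32.7%. The G form was thus the rarest of the 3 in immature replicates 2 and 3 and the most frequent in the other 4 libraries. Summed over these ends, G reads came to 9.97%, 0.0234% and 0.0197% of the U reads in immature and to 1.08%, 1.24% and 1.15% in mature testis. For A the sums were 0.210%, 0.0661% and 0.0822% against 0.331%, 0.379% and 0.312%, and for C 0.336%, 0.195% and 0.1995% against 0.238%, 0.245% and 0.259%, which overlapped. In immature replicate 1 few ends carried the G sum, since the median end had 0%, the 90th percentile was 1.57% and 1.92% of the ends had more G than U reads. The exact glycine tRNA fragment, which begins with G, was read with each other first base relatively more often in mature testis. Its U form (uniq_3181825, G1T) came to 2.80%, 0.264% and 0.275% of the unchanged fragment in immature and 20.6%, 19.9% and 20.1% in mature testis. The A form (uniq_4539102, G1A) came to 0.432%, 0.361% and 0.352% against 1.98%, 2.44% and 2.72%. For the C form (uniq_4522743, G1C) the values were 0.147%, 0.0317% and 0.0250% against 1.51%, 1.74% and 1.63%. The part of sequencing, library preparation or run in these exchanges was not tested, and the labels name no run or batch.

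Members were split by whether the G form or the U form was more abundant. The 37639 members at or below their U form held 7.33%, 5.57% and 5.33% of member reads in immature and 42.1%, 45.0% and 48.2% in mature testis, and their summed level was 1821 CPM ± 729 and 6394 CPM ± 272. Of their mature reads 66.9% ± 0.874 were of 29 to 32 nt. The 8148 members above their U form held 23.7% ± 0.367 of immature and 28.0% ± 2.43 of mature member reads, and summed to 6911 CPM ± 1382 and 3975 CPM ± 271. The remaining 71143 members, with no tRNA-like variant, no boxes and no U form, held 34.5% ± 3.09 of immature and 20.2% ± 0.690 of mature member reads.

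The clearest of the G forms was uniq_4079563, which had 0 reads in each immature library and 78.5, 40.9 and 93.6 CPM in mature testis. The mature mean was at least 123-fold higher than the floor of 3 counts over the immature group. Its U form, uniq_5153807, had 74.1 CPM in the immature group and 2155 CPM in mature testis, so that the member came to 3.30% of it in mature testis. In the same way uniq_3334678 had 0 reads in immature testis and 24.2, 24.1 and 27.9 CPM in mature testis, at least 43.9-fold higher than that floor. It came to 2.79% of its U form, uniq_2056404, which had 73.0 CPM in the immature group and 909.5 CPM in mature testis. Likewise uniq_2506501 stood at 1.45, 0 and 0 CPM in immature and at 33.6, 31.5 and 29.4 CPM in mature testis, which was 1.90% of the 1657 CPM of uniq_5184017. In all 3 pairs the U form was itself more abundant in mature testis.

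Other members of mature testis were more abundant than their U form. The leading one, uniq_2942607, stood at 0.724, 3.41 and 1.37 CPM in immature and at 67.9, 145 and 69.2 CPM in mature testis. It rose in mature testis, with a log2 fold change of 3.01 ± 0.74 (SE) under TMM scaling (edgeR, adjusted p = 0.000213). By library totals it was 5.54 ± 0.83 (edgeR, adjusted p = 2.097e-10). The mature mean was 51.3-fold the immature mean, and 89.96-fold without immature replicate 2. The members uniq_2942615 and uniq_2942635 differed from it only by the last base, T and A in place of G, and had 38.3 CPM ± 10.02 and 22.3 CPM ± 12.3 in mature testis. In immature testis they had 1.71 CPM ± 1.71 and 0.598 CPM ± 0.700. The mature mean of uniq_2942615 was 22.4-fold its immature mean, and 45.0-fold without immature replicate 3. The immature level of uniq_2942635 rested on 3 reads. The U form of all 3 had 18.6 CPM in mature testis and 0 reads in immature testis.

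The member uniq_2685080 stood at 0, 7.67 and 0 CPM in immature and at 58.5, 63.0 and 57.1 CPM in mature testis, and a sequence that begins with U and starts 1 base earlier, uniq_3409431, had 220.4 CPM in mature testis. The 29 nt member uniq_3164111 stood at 0.724, 0.426 and 0 CPM in immature and at 17.6, 26.3 and 12.1 CPM in mature testis, with 2 reads in all immature libraries together. The calls of uniq_2685080, uniq_2942615, uniq_2942635 and uniq_3164111 were lost under some other settings, with edgeR adjusted p up to 0.240, 0.127, 0.0754 and 0.0642. All of these rose with TMM factors and with library totals when all libraries were used.

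Members that start 1 base before a sequence beginning with U were also a larger part in mature testis. Their share of member reads was 6.25%, 5.52% and 6.61% in immature testis and 14.6%, 15.8% and 16.02% in mature testis (exact permutation p = 0.1), and by distinct sequences 8.21% ± 0.335 and 13.9% ± 0.184. Compared with the A sequences the difference by distinct sequences was 1.42 percentage points ± 0.115 in immature testis and 4.44 ± 0.290 in mature testis (exact permutation p = 0.1). Compared with the C sequences it was -4.72 ± 0.487 and -4.53 ± 0.344 by distinct sequences, which overlapped. By reads neither contrast overlapped between the groups. Members minus A sequences then came to -5.63 percentage points ± 2.69 across the immature libraries and to 5.32 ± 0.959 across the mature ones. Members minus C sequences came to -16.2 ± 2.08 and -8.12 ± 0.648, with members lower in every library. The exact permutation test gave 0.1 for each contrast by reads. Members whose bases 1 to 20 equal bases 2 to 21 of a U sequence, and which thus start 1 base after it, held 30.6% ± 6.75 of immature and 21.5% ± 1.81 of mature member reads, with overlap. By distinct sequences they were 4.91 percentage points ± 0.968 above the C sequences in immature testis and 6.38 ± 0.253 below them in mature testis (exact permutation p = 0.1).

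Overlaps of 10 nt, the mark of ping-pong pairs, cannot pair a member with a sequence that begins with U, because a partner over 10 nt begins with the complement of position 10. The share of member reads whose first 10 bases were the reverse complement of the first 10 of another sequence, minus the mean share with the window shifted by 1 to 5 nt, was -33.8 percentage points ± 6.73 in immature testis and -25.1 ± 0.519 in mature testis (exact permutation p = 0.1). Its negative sign follows from the rule. The A sequences, chosen likewise, had -23.0 ± 1.87 and -21.7 ± 2.86, and the C sequences -33.1 ± 1.65 and -28.0 ± 4.59. With all libraries thinned to 1382083 reads the members had -31.8 ± 6.94 and -16.8 ± 2.15, so the measure depends on depth. Guanine at position 10 was found in 58.3% ± 1.74 of immature and 42.5% ± 3.10 of mature member reads. By distinct members it was 39.2% ± 0.454 and 35.6% ± 0.688. In the whole table, where A at position 10 is not left out, it was 33.8% ± 1.94 and 24.8% ± 0.928 of reads. The lower value in mature testis is thus no trait of the members alone. The share of G and C among the bases of member reads was 50.7% ± 0.112 in immature and 50.3% ± 0.0682 in mature testis, against 47.2% and 45.9% in the whole table.

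The test across the whole table called most of the members that had enough reads to enter it. Of 31788 sequences tested 438 were members, or 0.369% of all members. With TMM factors 346 of the 438 (79.0%) were called by edgeR at an adjusted p under 0.05, against a background of 30.4% of all sequences tested. Of these, 66 (15.1%) were higher in mature testis, with a background of 8.41%, and 280 (63.9%) were higher in immature testis, with a background of 21.9%. With library totals and no factors 431 (98.4%) were called, against 98.1% of all sequences tested, so this share is no result about the members. Of the 431, 157 were higher in mature testis (background 77.7%) and 274 in immature testis (background 20.3%). Calls in favour of mature testis thus made up 19.1% of all member calls under TMM and 36.4% under library totals. Both scales gave the call and its direction for all 66 of the former and for 274 of the 280. The median log2 fold change of tested members was -5.59 with TMM factors and -3.03 with library totals, against 0.62 and 3.15 over all sequences tested. The shift between the scales was therefore about the same for members and for all sequences.

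By group of members, all 75 glycine tRNA variants, all 55 box C/D sequences and all 8 other A box sequences tested were called higher in immature testis with TMM factors. With library totals this held for all of them except 1 of the other A box sequences, which was not called. Of 122 tested members at or below their U form, 57 were called in favour of mature and 40 in favour of immature testis with TMM factors. Of 148 above their U form, 9 and 76 were called. Both groups were formed from levels in these same libraries, so the calls are not independent of the grouping. With library totals the counts were 82 and 38 at or below the U form and 71 and 73 above it, so the split of both groups depended on the scaling. With TMM factors the 66 members higher in mature testis came from these 2 groups alone, 62 of them (93.9%) were of 29 to 32 nt, and 58 had no read in any immature library. Of the 280 higher in immature testis 175 (62.5%) were of 29 to 32 nt, and of all 438 members tested 306 were. A member passes the filter on low counts through the group in which it is high, so these counts cover the abundant members only.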

How the data were processed

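Small RNA of 6 libraries was used. Whole-number read counts per distinct sequence of 25 to 32 nt, not normalized, were deposited in 1 table with 1 column per library, per the file headers. Per the submitters' processing notes, Bowtie was used, with no version named. How piRNAs were called, and on which genome build, is not stated in the labels, and no genome positions are stated. The table holds part of a longer list, so its totals (1382083 to 4550970 reads) are totals of listed sequences, not sequencing depth. No molecular identifiers were stated, so reads are not independent molecules.

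Members were read by their letters with Python 3.11.15, numpy 2.4.6 and pandas 2.3.3. The exact permutation test, two-sided and with 0.1 as its smallest p, was applied to shares per library. For counts of the whole table, the quasi-likelihood test of edgeR 4.0.16 (R 4.3.3) was used, with TMM scaling, the default filterByExpr and Benjamini-Hochberg adjustment over all sequences tested. The scripts were tested on simulated data. There the edgeR test called 0%, 10.4% and 60.6% of planted 2-fold, 4-fold and 8-fold changes. Most planted changes of 4-fold or less were thus missed. Standard errors were taken as the size of the log2 fold change over the root of its F statistic.

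Named sequences were the 10 most abundant members, the 8 most abundant called without overlap in each direction, and the leaders of the 10 most abundant families. The members, motifs and lists were chosen with earlier results of these data known. The classes, the last-base sets, the ends beginning with U and the removal of tRNA-like and box C/D members were added after the data were seen. Alternatives were library totals, upper quartile factors, DESeq2 1.42.0, filters on low counts, a replicate block, thinning to the smallest total, each sequence counted once, sequences read once left out, and leaving out each library. Equal replicate numbers were not found to pair libraries.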

Additional observations from a re-analysis of the deposited data

How the results depend on the processing

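The 10 shares and ratios kept their direction in 112 of 116 values under other settings, leaving out each library included; no p of theirs can pass a threshold with 3 libraries a group. In the other 4 values the sign turned. Counted by distinct sequences, mature minus immature was 0.764 percentage points for the share of members, in place of -1.50. For the log2 ratio of G members to C sequences it was 0.440 in place of -0.447. The same ratio was 0.0750 (exact permutation p = 0.5) without tRNA-like and box C/D members, chosen after seeing the data. For G members to A sequences the log2 ratio was 0.127 in the main setting (exact permutation p = 0.4) and -0.249 (exact permutation p = 0.2) without sequences read once. Without sequences read once, the difference in the share of reads held by members was -2.35 percentage points in place of -1.50, and the difference in the 10 nt excess 3.38 in place of 8.69. The counts of called members moved by over 1.5 times under several settings. With edgeR, members higher in mature testis numbered 157 with library totals and 104 with upper quartile factors, in place of 66. At 10 CPM or more in 3 libraries, 152 members were tested and 128 called, 9 higher in mature and 119 in immature testis. With at least 6 reads in all, 4938 were tested and 1548 called, 377 and 1171. Thinned to the smallest total, 201 were tested and 164 called, 16 and 148. Those filters and thinning change how many sequences are tested. For the scaling settings the cause was not tested. With DESeq2, 338 were called, 63 and 275. Leaving out 1 library gave 371 to 411 calls, 47 to 57 higher in mature and 320 to 364 in immature testis, among 440 to 733 members tested. A replicate block in edgeR gave 297 calls, with 22 higher in mature and 275 in immature testis. The deviations of libraries with equal numbers correlated at 0.0376, -0.0852 and 0.0102, and 1 of 6 libraries correlated best with its own number, so the numbers were not taken to pair libraries. In the blocked test of shares the smallest possible p is 0.25. Of the named sequences 4 lost their call under 1 or more settings, 18 values in all, and the other 239 values kept it. DESeq2 gave no adjusted p for uniq_3336576 and uniq_2998953, and thinning left uniq_2942635 untested, so these 3 are not among the values. At these depths most members, 96633 of 118638, had 1 read and could not be compared between groups.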

Other observations

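Occupancy of the members was lopsided between the groups, as it was in the whole table. All 3 mature libraries and no immature library held 3605 members, and all 3 immature libraries and no mature library held 460, while 382 were found in all 6. Among the A sequences the corresponding numbers were 2453, 582 and 364 of 144799, and among the C sequences 5037, 908 and 473 of 225872. In the whole table they were 146093, 40269 and 17191 of 4936717 sequences, to be set against the 118638 members. The lean to mature testis is thus no trait of the members alone. The mature libraries are deeper in this table, and the part of depth in these counts was not tested.

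A set of members that reads like the 3′ end of the smallest ribosomal RNA of the large subunit differed by the last base: uniq_4590596 ended in G, uniq_4590570 in A and uniq_4590576 in C. In immature testis their levels were 20.4 CPM ± 12.7, 20.2 CPM ± 14.9 and 20.5 CPM ± 9.57 (SD, n = 3), and in mature testis 2.60 CPM ± 0.163, 2.47 CPM ± 1.09 and 2.06 CPM ± 0.807. The 3 forms were at like levels within each group, unlike the set of uniq_4448432. For uniq_4590596 and uniq_4590576 every immature library was above every mature one. For uniq_4590570 the groups overlapped, with 3.62 CPM in immature replicate 1 and 3.72 CPM in mature replicate 2. Immature replicate 1 was the lowest immature library for all 3.

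At position 2, C was found in 45.6% ± 3.43 of immature and 25.5% ± 3.80 of mature member reads, against 22.0% ± 0.727 and 21.5% ± 0.344 of distinct members. The difference between the groups was thus seen in reads and hardly in distinct sequences, and C is the second base of the glycine tRNA fragment.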
